A study of Homo sapiens with 6 samples.

Results

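The plasma carrier and transport proteins are liver-made proteins that bind hormones, vitamins, iron, haem and drugs in blood, and 10 of their genes were taken by symbol from a table of 37822 genes: ALB, TTR, RBP4, TF, HP, HPX, AMBP, AHSG, ORM1 and ORM2. All 10 were in the table, and all 10 passed the filter on low counts. The cells were Huh7, a line from a human hepatocellular carcinoma. VPS72 cells had been infected with a lentivirus that overexpresses VPS72, a subunit of chromatin complexes that handle the histone variant H2A.Z, and FLAG cells, labelled WT, with a control FLAG lentivirus, with 3 libraries per group. Both groups thus carried a virus, which was made in HEK293T cells and left on the cells for 24 h. The labels name neither the promoter of the vector nor a clone, and they are silent on whether replicates came from separate cultures. The p-values therefore refer to variation among the libraries as given, and that variation could be technical.

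Hepatocytes secrete these proteins at high rates, and most of each protein in plasma comes from the liver. Albumin binds fatty acids, bilirubin and many drugs. Transthyretin (TTR) carries thyroxine and also holds retinol-binding protein (RBP4), which carries vitamin A out of the liver. Transferrin (TF) carries iron to cells that have its receptor, haptoglobin (HP) binds free haemoglobin and hemopexin (HPX) free haem. The orosomucoids (ORM1 and ORM2) bind basic drugs and, with haptoglobin, are classic acute phase proteins that rise in inflammation, while albumin, transthyretin, transferrin and fetuin-A (AHSG) are known to fall. In liver their genes are read by HNF1, HNF4, FOXA and C/EBP transcription factors.

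The start regions of 4 genes that rose are shown to let their makeup be compared, as the 250 bases before the start site in the RefSeq promoter table (GRCh38.p14). Of the 10 genes, 7 had an entry (ALB, RBP4, TF, HPX, AMBP, AHSG and ORM1), and of several starts the one nearest to that of the GENCODE v29 transcript with the longest coding sequence was used. The windows are chr4:73404037-73404286 on the plus strand for ALB, chr10:93601236-93601485 on the minus strand for RBP4, chr3:133746143-133746392 on the plus strand for TF and chr9:114322848-114323097 on the plus strand for ORM1. Each reads 5′ to 3′ on the gene's strand, and capitals mark matches to 6 motifs on either strand.
ALB: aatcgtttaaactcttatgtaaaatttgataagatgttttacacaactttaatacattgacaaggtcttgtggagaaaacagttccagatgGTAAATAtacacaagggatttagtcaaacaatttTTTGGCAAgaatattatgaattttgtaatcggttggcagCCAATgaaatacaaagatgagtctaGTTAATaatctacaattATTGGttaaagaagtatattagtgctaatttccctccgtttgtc
RBP4: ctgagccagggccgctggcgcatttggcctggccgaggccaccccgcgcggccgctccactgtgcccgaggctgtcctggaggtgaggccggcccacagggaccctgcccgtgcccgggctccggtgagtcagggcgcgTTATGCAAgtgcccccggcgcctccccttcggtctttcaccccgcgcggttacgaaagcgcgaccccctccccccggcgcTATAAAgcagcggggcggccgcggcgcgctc
TF: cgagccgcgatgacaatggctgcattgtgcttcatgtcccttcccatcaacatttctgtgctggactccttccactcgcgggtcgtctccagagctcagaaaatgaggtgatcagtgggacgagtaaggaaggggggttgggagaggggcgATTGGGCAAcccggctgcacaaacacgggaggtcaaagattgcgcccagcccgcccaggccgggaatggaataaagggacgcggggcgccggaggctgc
ORM1: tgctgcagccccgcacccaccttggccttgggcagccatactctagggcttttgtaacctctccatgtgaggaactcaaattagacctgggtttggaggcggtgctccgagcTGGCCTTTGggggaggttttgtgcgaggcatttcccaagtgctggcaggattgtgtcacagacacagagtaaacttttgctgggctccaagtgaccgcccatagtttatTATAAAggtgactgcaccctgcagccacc
The motifs were the HNF1 motif GTTAAT, the CCAAT box CCAAT, the C/EBP motif TTNNGCAA, the FOXA motif TNTTTAC, the HNF4 core CAAAGNNCA and the TATA box TATAAA, and in TF a CCAAT match on the minus strand overlaps a C/EBP match. ALB held 4 of the 6 motifs, the HNF1 motif nearest to the start but for a CCAAT match on the minus strand. The C/EBP motif lay in 5 of the 7 windows (AHSG, ALB, HPX, RBP4 and TF), against 9.05% of all 35116 windows of the table, and the CCAAT box in 4 of 7 (ALB, AMBP, HPX and TF), against 32.0%. The HNF4 core was in AHSG and ORM1 (4.44% of all windows), TATAAA in ORM1 and RBP4 (10.7%), and the HNF1 motif (6.23%) and the FOXA motif (9.58%) in ALB of the 7. A match describes these letters and does not show that a factor bound there.

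Libraries held 23969324 to 29091824 counts in the VPS72 group and 21345279 to 25352335 in the FLAG group. VPS72 itself had 27483 to 33086 counts in the VPS72 libraries and 511 to 686 in the FLAG libraries, in the direction of the labels. Values are CPM, read counts relative to the TMM-scaled library total, as mean ± SD over 3 libraries, and tests are edgeR's quasi-likelihood test with Benjamini-Hochberg adjustment over the 14253 genes tested. The 12 hepatocyte and liver cancer line markers summed to 22047 to 22850 CPM of the unscaled total in VPS72 libraries and 19896 to 20830 CPM in FLAG libraries, 3 of them being carriers themselves; this sum moved with the carriers, and its part in the result was not tested. The 8 HEK293T markers summed to at most 1.46 CPM in VPS72 and 1.62 CPM in FLAG libraries, with NEFL and SOX11 at 0 in all libraries. The 7 fibroblast markers summed to at most 15.5 CPM in VPS72 and 16.6 CPM in FLAG libraries, the 7 immune markers to at most 14.3 CPM in VPS72 and 12.6 CPM in FLAG libraries, mostly LYZ with PTPRC at or near 0, and the 5 endothelial markers to at most 4.88 CPM in VPS72 and 4.61 CPM in FLAG libraries. The 5 bile duct markers, which this line expresses in part, summed to 253 to 269 CPM in VPS72 and 245 to 266 CPM in FLAG libraries, with KRT7 at or near 0. In bulk samples, a change in the share of cells that make a transcript and a change in transcript per cell cannot be told apart.

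The carrier transcripts stood higher in VPS72 libraries by moderate amounts. All 10 had a positive log2 fold change, 5 rose past an adjusted p of 0.05 (ALB, TTR, RBP4, TF and ORM1), none fell, and 5 did not pass (HP, HPX, AMBP, AHSG and ORM2). Over all genes tested, 0.421% were called higher and 0.196% lower. At an unadjusted p under 0.05 in edgeR, 9 carriers were higher and 0 lower, against 6.03% of all genes higher and 5.51% lower. DESeq2 called 8 higher and 0 lower, against 1.3% of all genes higher and 0.442% lower. The median log2 fold change of the 10 was 0.21, against -0.00 for all tested genes. Most carriers are abundant, and the 2270 genes with a mean of at least 100 CPM, a level chosen after the data were seen, are a nearer background. Of those, 2.16% were called higher, with a median log2 fold change of 0.03 and a 95th percentile of 0.15. The 7 carriers at that level held 6 values above the 95th percentile, AMBP being below it. In 8 of 10 carriers, HP and ORM2 apart, all VPS72 libraries lay above all FLAG libraries, as they did in 8.76% of all tested genes and 22.6% of those with at least 100 CPM. The list was chosen with earlier results of these data known, so these counts are a description.

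**Figure D1:**
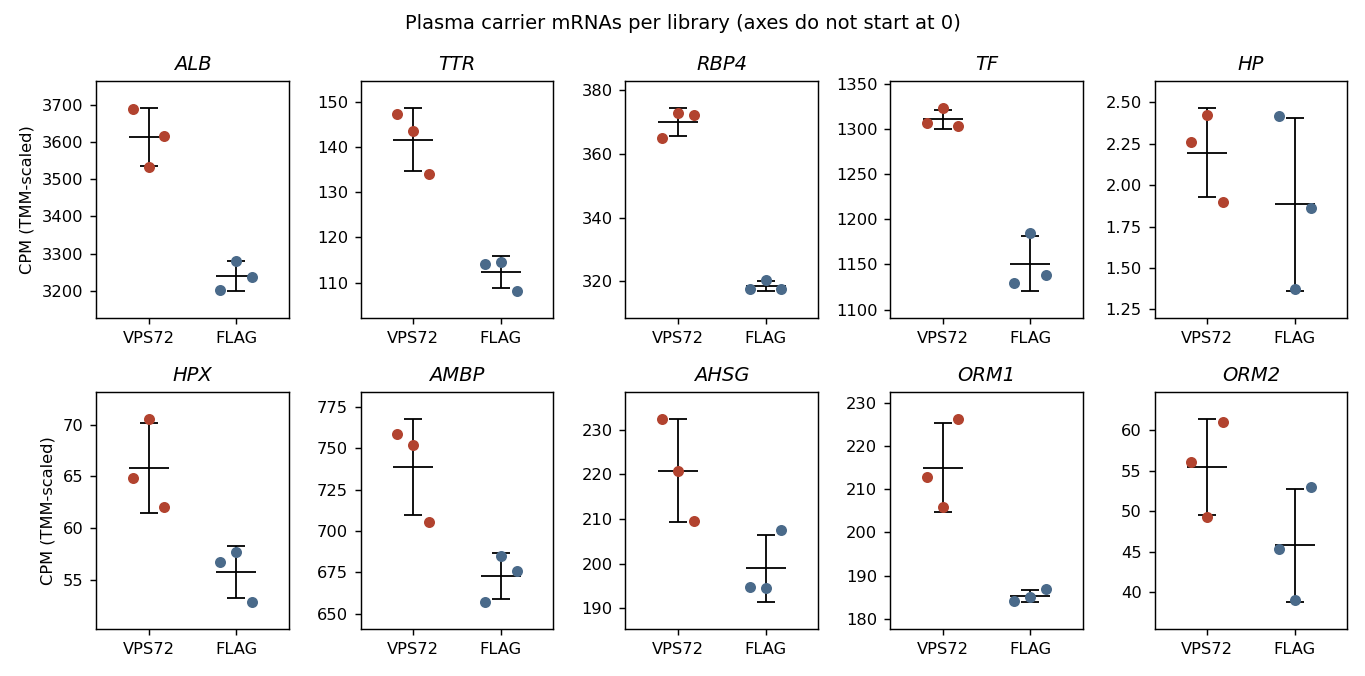
CPM of each of the 10 carrier mRNAs (y axis, TMM-scaled, not starting at 0) in the 3 VPS72 and the 3 FLAG libraries; bars are mean and SD. In 8 panels the VPS72 points lie above all FLAG points, while HP and ORM2 overlap.

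Together the 10 transcripts took 0.676%, 0.660% and 0.661% of all counts in VPS72 replicates 1 to 3, and 0.597%, 0.613% and 0.602% in FLAG replicates 1 to 3. The share was higher in each VPS72 library than in any FLAG library, by 0.0614 percentage points on average. ALB made up 53.97%, 52.95% and 54.05% of the counts of the 10 genes in VPS72 replicates 1 to 3, against 54.23%, 54.11% and 54.13% in FLAG replicates 1 to 3. Each VPS72 library lay below each FLAG library, by a narrow margin in replicates 1 and 3.

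Levels can be compared between genes only per length, here per kilobase of coding sequence (GENCODE v29, longest coding transcript), although reads also fall on untranslated parts. On that scale ALB stood first, at 1978 ± 42.6 CPM per kb in VPS72 and 1773 ± 21.7 CPM per kb in FLAG libraries (SD, n = 3 each). AMBP, TF, RBP4, ORM1, TTR, AHSG, ORM2 and HPX followed in that order in both groups, from AMBP with a level of 700 ± 27.4 CPM per kb in VPS72 and 637 ± 13.2 CPM per kb in FLAG libraries to HPX with 47.5 ± 3.14 CPM per kb in VPS72 and 40.2 ± 1.82 CPM per kb in FLAG libraries. HP came last, at 1.66 ± 0.20 CPM per kb in VPS72 and 1.42 ± 0.39 CPM per kb in FLAG libraries, so that ALB in FLAG libraries was 1248 times its level. No neighbours in this order overlapped over the 3 libraries of either group. The neighbours with the closest means relative to their level were TF, with 622 to 632 CPM per kb in VPS72 and 539 to 566 CPM per kb in FLAG libraries, and RBP4, with 605 to 618 CPM per kb in VPS72 and 527 to 531 CPM per kb in FLAG libraries.

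Albumin, the main protein of plasma, was higher in every VPS72 library. ALB had 3689, 3534 and 3618 CPM in VPS72 replicates 1 to 3, against 3201, 3280 and 3236 CPM in FLAG replicates 1 to 3. The groups did not overlap, and the spread within each was small beside the gap. The means were 3613 ± 77.9 CPM in VPS72 and 3239 ± 39.7 CPM in FLAG libraries, a rise of 11.6% (log2 fold change 0.16 ± 0.02 SE; edgeR, Benjamini-Hochberg adjusted p = 0.00127). The call held without any single library, with adjusted p of at most 0.0198 by the same test. It was lost when a smooth trend of the values with abundance was removed, which gave a log2 fold change of 0.08 (edgeR, Benjamini-Hochberg adjusted p = 0.0826), and ALB is the 18th most abundant of the genes tested.

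The thyroxine and vitamin A carriers, which circulate as a complex, both rose. TTR had 147, 144 and 134 CPM in VPS72 replicates 1 to 3, against 114, 114 and 108 CPM in FLAG replicates 1 to 3. Every VPS72 library lay above every FLAG library, with replicate 3 the lowest of its group in both. Means of 142 ± 6.87 CPM in VPS72 and 112 ± 3.54 CPM in FLAG libraries gave a rise of 26.1% (log2 fold change 0.34 ± 0.05 SE; edgeR, Benjamini-Hochberg adjusted p = 0.00246). Without single libraries the adjusted p of TTR was 0.00378 to 0.0245 by the same test, and it held with the abundance trend removed (0.00696). With all libraries this was the largest log2 fold change of the 10, but ORM2 was above TTR without VPS72 replicate 2 (0.36 for ORM2 and 0.33 for TTR) or FLAG replicate 3 (0.39 and 0.31), and HP without FLAG replicate 1 (0.45 and 0.35).

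RBP4 had 365, 373 and 372 CPM in VPS72 replicates 1 to 3, against 318, 320 and 318 CPM in FLAG replicates 1 to 3. The FLAG libraries lay within a few CPM of each other, and all VPS72 libraries were above them. At means of 370 ± 4.36 CPM in VPS72 and 319 ± 1.51 CPM in FLAG libraries the rise was 16.1% (log2 fold change 0.22 ± 0.03 SE; edgeR, Benjamini-Hochberg adjusted p = 0.00609). Without FLAG replicate 1 the call was lost (edgeR, adjusted p = 0.0538), with a log2 fold change of 0.21.

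Transferrin, the iron carrier, rose by 13.9%. TF had 1307, 1323 and 1303 CPM in VPS72 replicates 1 to 3, against 1129, 1185 and 1138 CPM in FLAG replicates 1 to 3. The groups did not overlap, and the FLAG libraries spread more than the VPS72 libraries. The means were 1311 ± 10.6 CPM in VPS72 and 1151 ± 30.1 CPM in FLAG libraries (log2 fold change 0.19 ± 0.03 SE; edgeR, Benjamini-Hochberg adjusted p = 0.00246). The call held without any single library (adjusted p of at most 0.0316) and with the abundance trend removed (0.0412), by the same test.

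Of the haem and haemoglobin scavengers, neither passed the test. HPX, which delivers haem to the liver, had 64.9, 70.5 and 62.0 CPM in VPS72 replicates 1 to 3, against 56.7, 57.7 and 52.9 CPM in FLAG replicates 1 to 3, so the groups did not overlap. Its log2 fold change was 0.24 ± 0.06 (SE; edgeR, Benjamini-Hochberg adjusted p = 0.0892, unadjusted p = 0.00107). DESeq2 called it higher (Benjamini-Hochberg adjusted p = 0.0191), as did edgeR with no filter on low counts (0.0107).

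HP, which binds haemoglobin, had the lowest level of the 10 carriers. It had 65, 64 and 45 counts in VPS72 replicates 1 to 3, against 62, 35 and 40 counts in FLAG replicates 1 to 3, or 2.20 ± 0.27 CPM in VPS72 and 1.88 ± 0.52 CPM in FLAG libraries. The groups overlapped and the log2 fold change was 0.22 ± 0.29 (SE; edgeR, Benjamini-Hochberg adjusted p = 0.841). At this depth counting error alone is 13.9% of a library's value, so a difference of the size seen in the other carriers was not detectable. Part of the reads could also be shared with HPR, the haptoglobin-related gene beside it, whose longest coding transcript matched that of HP at 96.2% of 1197 aligned bases in GENCODE v29. HPR itself held 12 to 15 counts in VPS72 and 8 to 18 counts in FLAG libraries.

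AMBP and AHSG lay higher without passing. AMBP encodes a precursor that is cut into alpha-1-microglobulin, a small haem-binding lipocalin, and bikunin, a protease inhibitor. It had 759, 752 and 706 CPM in VPS72 replicates 1 to 3, against 657, 685 and 676 CPM in FLAG replicates 1 to 3, without overlap. Its log2 fold change was 0.14 ± 0.03 (SE; edgeR, Benjamini-Hochberg adjusted p = 0.0877), and VPS72 replicate 3 stood apart below the other two. Without that library AMBP passed (log2 fold change 0.17; edgeR, adjusted p = 0.0498), as it did with limma-voom (0.0474), with no filter (0.0082) and with DESeq2 (0.00622).

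AHSG encodes fetuin-A, which binds calcium phosphate in plasma. It had 232, 221 and 209 CPM in VPS72 replicates 1 to 3, against 195, 195 and 208 CPM in FLAG replicates 1 to 3. The lowest VPS72 library was only just above the highest FLAG library. The log2 fold change was 0.15 ± 0.05 (SE; edgeR, Benjamini-Hochberg adjusted p = 0.165). The 2 fits that called AHSG higher were DESeq2 (Benjamini-Hochberg adjusted p = 0.0367) and edgeR with no filter on low counts (0.0413).

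The orosomucoids, both lipocalins, differed in level and in spread. ORM1 had 213, 206 and 226 CPM in VPS72 replicates 1 to 3, against 184, 185 and 187 CPM in FLAG replicates 1 to 3. All VPS72 libraries lay above the narrow range of the FLAG libraries, with means of 215 ± 10.4 CPM in VPS72 and 185 ± 1.37 CPM in FLAG libraries. ORM1 passed the test (log2 fold change 0.21 ± 0.04 SE; edgeR, Benjamini-Hochberg adjusted p = 0.0298). This call was lost without single libraries more often than the other 4. By the same test, ORM1 did not pass without FLAG replicate 1 (0.172), 2 (0.0542) or 3 (0.0748). Nor did it pass without VPS72 replicate 1 (0.0848) or 3 (0.12). Its log2 fold change stayed at 0.18 to 0.25 without any single library. Scaling by library size alone (0.0678), removing the abundance trend (0.0706) and adding the replicate number as a block (0.0925) each took the call away too.

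ORM2 had 56.1, 49.3 and 61.1 CPM in VPS72 replicates 1 to 3, against 45.4, 39.1 and 53.0 CPM in FLAG replicates 1 to 3. The groups overlapped, since FLAG replicate 3 stood above VPS72 replicate 2, and the log2 fold change of 0.28 ± 0.10 did not pass (SE; edgeR, Benjamini-Hochberg adjusted p = 0.242). The longest coding transcripts of ORM1 and ORM2 matched at 95.9% of 760 aligned bases. Of their 50-base windows, 50.2% of those of ORM2 also stood in ORM1, and 47.4% of those of ORM1 in ORM2. A read that lies wholly within a shared stretch matches both genes. How many reads the counter divided between them depends on read length and was not tested. With the counts of both genes summed, and those of HP and HPR likewise, the orosomucoids had a log2 fold change of 0.23 (edgeR, Benjamini-Hochberg adjusted p = 0.0349). ORM2 counts were 25.7% of ORM1 counts in VPS72 and 24.5% in FLAG libraries (geometric means), with a log2 ratio 0.07 higher in VPS72 libraries and overlapping groups (two-sided exact permutation p = 0.7).

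**Figure D2:**
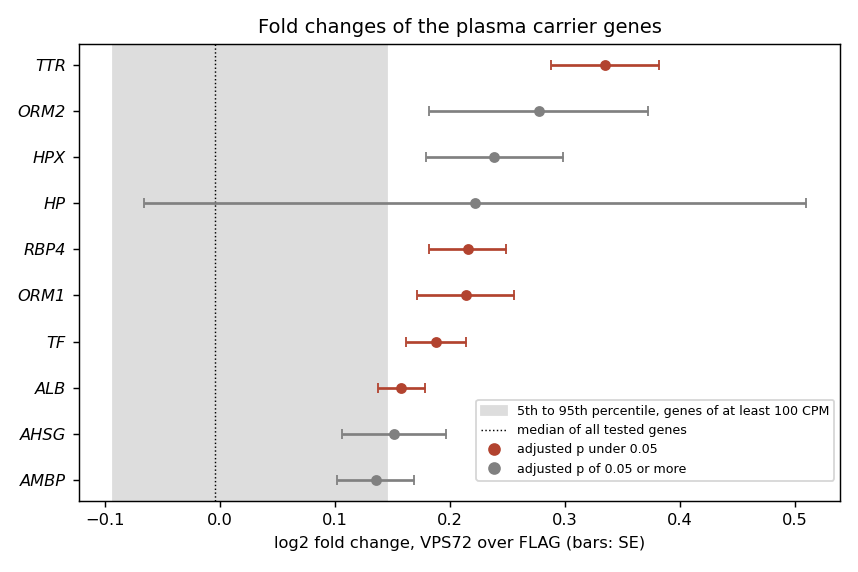
log2 fold change of each carrier gene, VPS72 over FLAG, with its SE (x axis), red where the adjusted p is under 0.05. All 10 points are to the right of 0, TTR farthest at 0.34, and the SE of HP (0.29) is the widest.

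**Figure D3:**
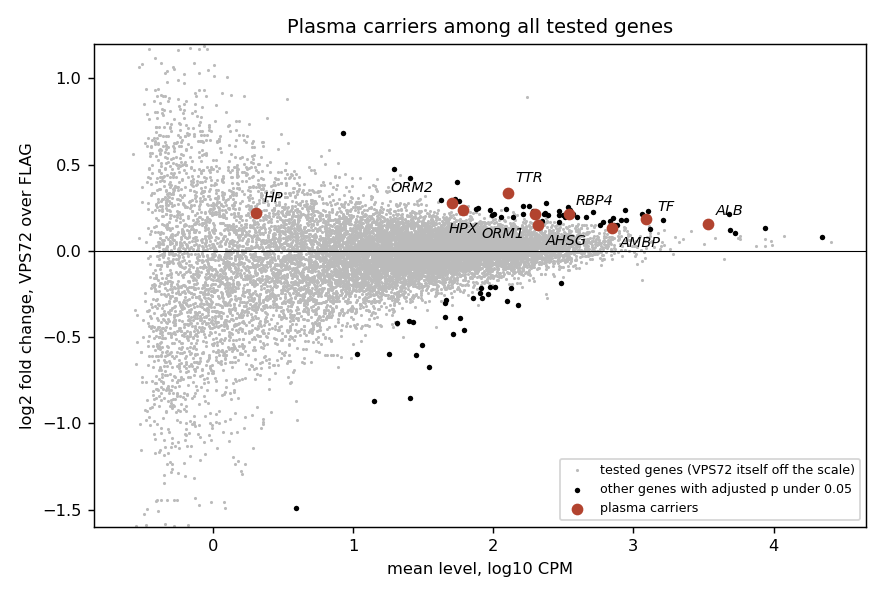
log2 fold change (y axis) against mean level (x axis, log10 CPM) of the tested genes, with the 10 carriers in red. Genes beyond the limits of the y axis, VPS72 itself among them, are not shown. Low genes scatter widely, and of the 7 carriers of at least 100 CPM, 6 lie above the 95th percentile (0.15) of all genes of at least 100 CPM and AMBP below it.

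Ratios within a library do not depend on how libraries were scaled. Relative to ALB, TTR stood at 3.92% of the ALB count in VPS72 and 3.46% in FLAG libraries (geometric means), with log2 ratios of -4.65, -4.62 and -4.76 in VPS72 replicates 1 to 3, against -4.81, -4.84 and -4.90 in FLAG replicates 1 to 3. The difference of 0.18 had groups without overlap, with a two-sided exact permutation p = 0.1, the smallest that 3 against 3 can give, and 0.667 after Benjamini-Hochberg adjustment over the 10 ratios tested. The other 8 carriers had ratios to ALB whose groups overlapped, with differences from -0.02 for AMBP to 0.12 for ORM2 and exact permutation p from 0.2 to 1. TF counts were 36.3% of the ALB count in VPS72 and 35.5% in FLAG libraries, and RBP4 counts 10.2% in VPS72 and 9.83% in FLAG libraries. So among the 10 carriers, a change relative to albumin was without overlap in TTR alone, and no ratio passed.

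**Figure D4:**
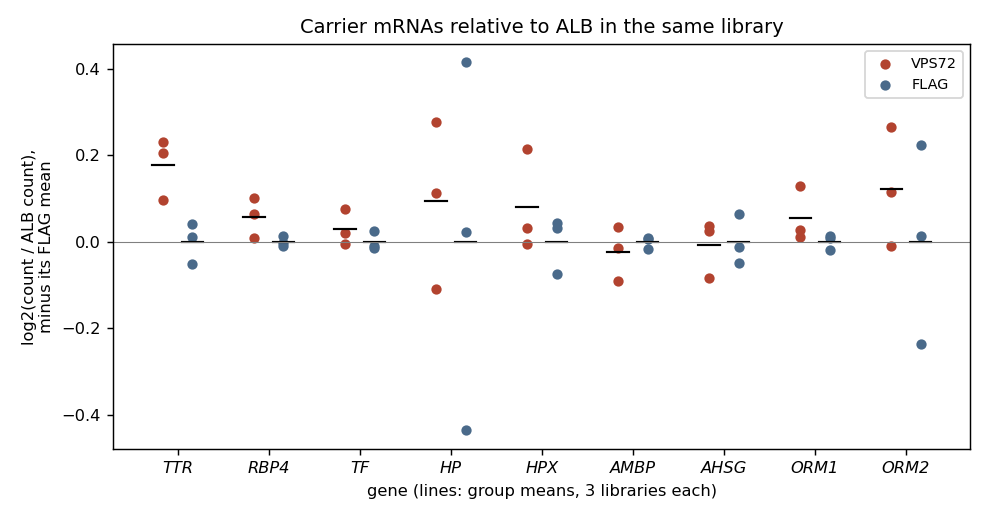
log2 of each carrier's count over the ALB count of the same library, minus its FLAG mean (y axis), for VPS72 and FLAG libraries; lines are group means. TTR is the gene whose VPS72 points all lie above its FLAG points.

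The pathway genes around the carriers were read in 9 lists, carriers left out. Over all genes tested, 0.421% were called higher and 0.196% lower, and of those with at least 100 CPM 2.16% were called higher. Listed genes that failed the filter on low counts were not tested. The lists held 16 other plasma transport proteins, 9 fetuin and inter-alpha-inhibitor relatives and 15 acute phase proteins. Those of iron, retinoid and uptake genes held 23, 25 and 12. Of 11 tested other plasma transport proteins, 1 rose, 0 fell and 10 did not pass, with a median log2 fold change of 0.22. The one that rose was AFP, the fetal relative of albumin whose gene lies next to ALB, with 5184 ± 98.4 CPM in VPS72 and 4464 ± 82.0 CPM in FLAG libraries (log2 fold change 0.22 ± 0.02 SE; edgeR, Benjamini-Hochberg adjusted p = 5.89e-05). Of 2 tested fetuin and inter-alpha-inhibitor relatives, 1 rose, ITIH2, a heavy chain that is joined to bikunin from AMBP (643 ± 19.7 CPM in VPS72 and 571 ± 11.2 CPM in FLAG libraries; log2 fold change 0.17 ± 0.03; edgeR, adjusted p = 0.0249), and 1 did not pass. The call of ITIH2 was lost without VPS72 replicate 1 (0.059) or 3 (0.109) and without FLAG replicate 1 (0.124) or 3 (0.0969), and with library size scaling (0.0802), the block (0.122) or the abundance trend removed (0.136), by the same test. Of 9 tested acute phase proteins, 4 rose, 0 fell and 5 did not pass, with a median of 0.21. They were SERPINA1, an elastase inhibitor (0.23 ± 0.03), and the fibrinogen chains FGB (0.23 ± 0.03), FGA (0.21 ± 0.03) and FGG (0.19 ± 0.03), with edgeR's Benjamini-Hochberg adjusted p from 0.000542 for SERPINA1 to 0.0167 for FGG. FGG did not pass without VPS72 replicate 2 or 3 or FLAG replicate 1 or 3, with edgeR's adjusted p of 0.0691 to 0.124, while SERPINA1, FGB and FGA passed without any single library. FGG also did not pass with the block (0.0616), library size scaling (0.0537) or the abundance trend removed (0.089).

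Of 12 acute phase signalling genes, 0 passed by edgeR or DESeq2 (at an unadjusted p under 0.05 in edgeR, 0 were higher and 2 lower), with a median log2 fold change of -0.04. IL6ST, the shared receptor chain of the interleukin 6 family, had 0.02 ± 0.03 and JAK1, a kinase bound to it, -0.04 ± 0.03. Of 20 liver transcription factors, 0 passed by edgeR and 1 by DESeq2 (unadjusted, 3 were higher and 1 lower), 10 had a positive log2 fold change and the median was 0.00. Of all genes, 6.03% were higher and 5.51% lower at an unadjusted p under 0.05 in edgeR. DESeq2 called 1.3% of all genes higher and 0.442% lower. PROX1, a homeobox factor of hepatocytes, had 734 ± 14.2 CPM in VPS72 and 717 ± 1.82 CPM in FLAG libraries, and ONECUT2 had 539 ± 24.4 CPM in VPS72 and 545 ± 15.9 CPM in FLAG libraries.

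Among 20 tested genes of iron and haem handling, 1 rose, 0 fell and 19 did not pass, with a median log2 fold change of 0.08. It was FTL, the light chain of the iron store ferritin, with 5045 ± 210 CPM in VPS72 and 4643 ± 43.3 CPM in FLAG libraries (log2 fold change 0.12 ± 0.02 SE; edgeR, Benjamini-Hochberg adjusted p = 0.0324), a call lost without VPS72 replicate 1 (0.103) or 2 (0.167) and without FLAG replicate 1 (0.18) or 3 (0.0941). FTL also did not pass with upper quartile scaling (0.072), the stricter filter (0.0545), library size scaling (0.121) or the block (0.0995), and with the abundance trend removed its log2 fold change was 0.03 (0.617). Among 14 tested genes of retinoid and thyroid hormone handling, 1 rose, ALDH1A1, which makes retinoic acid (716 ± 5.17 CPM in VPS72 and 634 ± 8.21 CPM in FLAG libraries; log2 fold change 0.18 ± 0.03; edgeR, adjusted p = 0.00745), and 13 did not pass, with a median of 0.02. ALDH1A1 passed without any single library, but not with the replicate number as a block (0.0695) or the abundance trend removed (0.0751). Of 10 tested genes of plasma protein uptake and recycling, 0 passed by edgeR or DESeq2 (unadjusted, 1 was higher and 0 lower), with a median of 0.07, IGF2R at 0.06 ± 0.03 and DAB2 at 0.02 ± 0.04. Of 39 secretory pathway genes, through which all carriers leave the cell, 0 passed by edgeR and 5 by DESeq2, with a median of 0.04. At an unadjusted p under 0.05 in edgeR, 11 of the 39 were higher and 1 lower, beside 6.03% and 5.51% of all genes, and DESeq2 called 1.3% of all genes higher and 0.442% lower. These shares cover genes of all levels. Genes of at least 100 CPM were called higher by edgeR more often than all genes (2.16% against 0.421%), and their unadjusted share is not given here. SEC61A1, a subunit of the channel into the endoplasmic reticulum, had 0.08 ± 0.03, and P4HB, a disulfide isomerase, 0.00 ± 0.08 with a wide spread in both groups.

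The carriers lie on 7 chromosomes, and AMBP, ORM1 and ORM2 lie close together on chromosome 9 of the reference. Of the protein-coding genes up to 3 places to either side of each carrier (RefSeq, GRCh38.p14), 43 that are not carriers were tested and 1 was called, AFP. Of all genes tested, 0.617% were called in either direction. The median log2 fold change of the 43 was 0.04, from -0.99 ± 0.30 (SE) for RASSF6 to 0.73 ± 0.41 for HRG. Both had group means of at most 3.03 CPM, and neither passed. COL27A1, between AMBP and ORM1, had 0.11 ± 0.04 and SRPRB, next to TF, 0.01 ± 0.05, and neither passed (edgeR, Benjamini-Hochberg adjusted p = 0.331 and 0.981).

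How many carriers were called higher depended on the fit. With no filter on low counts 9 were called, against 0.668% of all genes, and with DESeq2 8, against 1.3%. With the abundance trend removed 3 were called, TTR, RBP4 and TF, against 0.189%, and without FLAG replicate 1 also 3, ALB, TTR and TF, against 0.103%. With the replicate number as a block 4 were called, ALB, TTR, RBP4 and TF, against 0.126%. Tested against a 1.2-fold change, 0 of 10 were called, against 1 gene of 14253 (0.00702%). That test asks for a larger change than the other fits. Only TTR (26.1%) and ORM2 (21.2%) had estimated rises above 1.2-fold, so it could not call the other carriers.

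**Figure D5:**
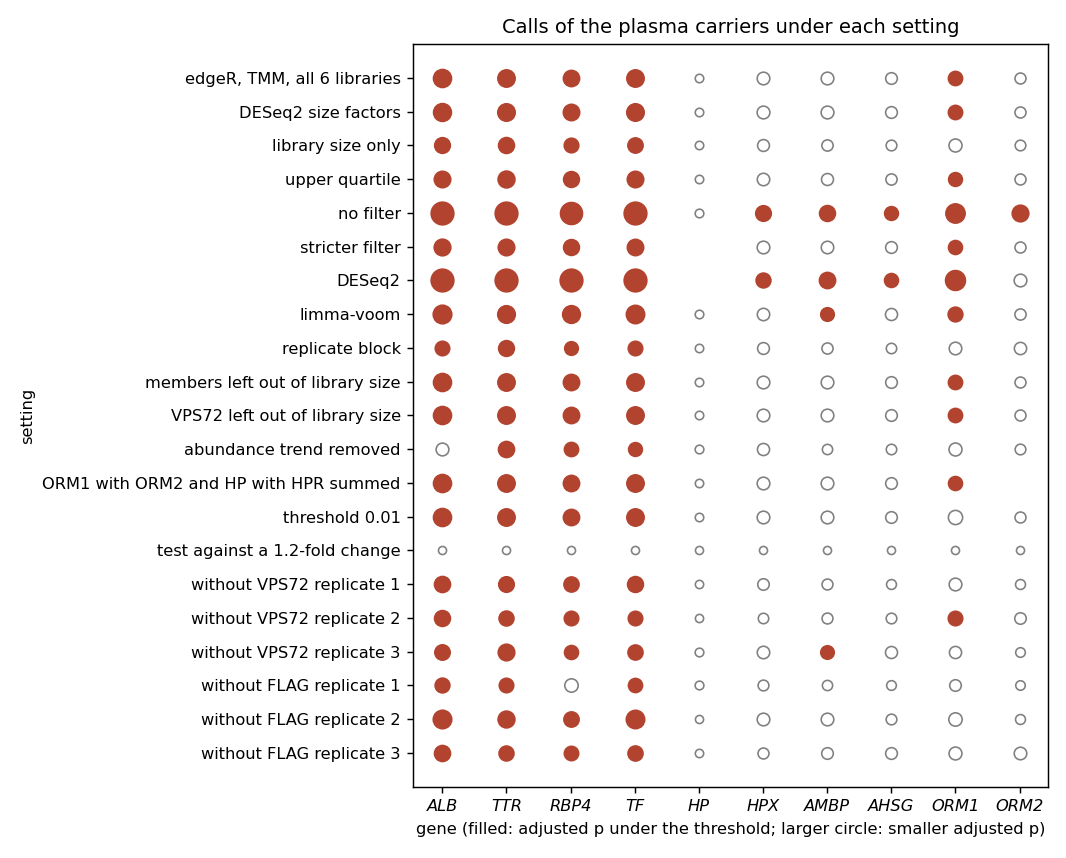
Each carrier's call (x axis) under each processing setting (y axis); filled circles are adjusted p under the threshold, larger ones smaller p, and a missing circle means no value. TTR and TF are filled in every setting but the test against a 1.2-fold change, and HP in none.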

How the data were processed

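Per the labels' protocols, RNAzol served to isolate the RNA and Roche's KAPA RNA HyperPrep to build libraries. The authors deposited 1 table of estimated counts per gene, whole numbers that are not normalized. STAR, RSEM and limma, and both hg19 and hg38, are listed in the submitters' processing notes with no role or version. The sources used here give no annotation and do not say whether strand was used. Columns were mapped to samples by their names, and groups came from the sample titles.

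Counts, already whole, were filtered with filterByExpr (minimum count 10, minimum total 15), leaving 14253 genes with 99.925% of counts, TMM-scaled, and fitted with the quasi-likelihood method of edgeR (version 4.0.16, in R 4.3.3) at a Benjamini-Hochberg threshold of 0.05. The SE is the log2 fold change over the square root of F. The common coefficient of variation was 7.24%. Replicate pairs differed by more than sampling noise (chi-square per degree of freedom 4.70 to 7.69). Exact permutation tests of 3 against 3 cannot go below p = 0.1. The scripts were tested on simulated data.

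The carriers and lists were chosen with earlier results of these data known. Named genes were the 10 carriers, VPS72 and, of each of the 9 lists, up to 4 others past the threshold, or the 2 most abundant where none passed. COL27A1, SRPRB, RASSF6 and HRG were named after their values were seen, as were the marker genes given. Coding lengths came from GENCODE v29, because the protein table planned for this was not available. Alternatives were other scalings, no or stricter filters, DESeq2 (1.42.0), limma-voom (limma 3.58.1), a replicate block, removal of a loess trend with abundance, summed paralogs, a stricter threshold (0.01), a minimum fold of 1.2 in the test, and leaving out each library.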

Additional observations from a re-analysis of the deposited data

How the results depend on the processing

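Across 20 alternatives, every carrier that could be tested kept a positive log2 fold change and none was called lower. HP was not tested under the stricter filter and has no adjusted p in DESeq2, and ORM2 has no value of its own where paralogs were summed. The count of carriers called higher, 5 with all libraries, was 9 with no filter on low counts, 8 with DESeq2 and 3 with the abundance trend removed. It was 3 to 5 without single libraries. Against a 1.2-fold change, which only the estimates of TTR and ORM2 exceeded, it was 0. The carriers' median log2 fold change, 0.21, was 0.18 when scaled by library size, 0.18 after removal of the trend, 0.19 with paralogs summed and 0.19 to 0.22 without single libraries. Scaling by library size moved the median of all genes to -0.04. Calls in the fetuin list (1) and the iron list (1) were 0 under library size scaling, 0 with the replicate block, 0 without the trend and 0 to 1 without single libraries; the retinoid list (1) had 0 with the block and 0 without the trend. DESeq2 gave 3 calls among other transport proteins, 3 in the iron list, 1 among liver transcription factors and 5 in the secretory pathway, and other transport proteins had 1 to 2 calls without single libraries. The causes were not tested. The replicate block called 4 carriers, ORM1 being lost; same-numbered libraries share only a number, with correlations of -0.05, 0.03 and 0.06 between their deviations from the group means. Depth limits HP most, with 35 to 65 counts a library.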
